A study of Mus musculus with 8 samples.

Results

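The transcription factor p53, encoded by Trp53, and 9 genes that it is known to switch on were followed in immature myeloid cells (IMCs) that lacked PARP1 or PARP2. The genes were chosen by symbol as established p53 targets, namely Cdkn1a, Mdm2, Bax, Bbc3, Phlda3, Ccng1, Zmat3, Trp53inp1 and Sesn1. All 10 were found among the 24062 genes of the count table, and all 10 were among the 13197 genes with enough counts to be tested. The comparison asked whether loss of either enzyme left a p53 response in cultures to which the sources name no DNA-damaging agent as added.

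Total RNA was sequenced in 8 libraries, with 2 in each of 4 groups. All mice were C57BL/6 and 2 months old. PARP1 WT cells carried PARP1 flox/flox, and PARP1CKO cells carried PARP1 flox/flox with lysozyme-Cre. PARP2 WT cells carried PARP2 flox/flox, and PARP2CKO cells carried PARP2 flox/flox with lysozyme-Cre. Every group was therefore homozygous for a floxed allele, the WT groups were littermates without Cre, and lysozyme-Cre acts in cells of the myeloid lineage, so other bone marrow cells keep the gene. Bone marrow cells of each genotype were cultured in M-CSF at 40 ng per mL, the growth factor of the monocyte lineage, for 3 days, and each library was made from 4 µg of RNA. The replicates are described as biological duplicates, but whether each came from its own mouse is not stated, so p-values measure the spread between these libraries.

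In unstressed cells p53 is made and destroyed continuously, because its own target Mdm2 marks it for degradation. DNA breaks activate the kinases ATM and ATR, which free p53 from Mdm2. The stabilised protein then binds paired half-sites in its target genes and raises their transcription, so the mRNAs of these targets are a common readout of p53 activity, while Trp53 mRNA itself need not move. PARP1 and PARP2 bind DNA breaks and build chains of poly(ADP-ribose) there, which draw in repair proteins.

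Promoter stretches of the members are shown because p53 acts on a gene through half-sites. RefSeq promoter windows on GRCm38.p6, reaching from 250 bases before to 50 bases after a transcription start, were matched for 8 of the 10 genes, all but Zmat3 and Trp53inp1. The p53 half-site consensus of 10 bases reads the same on both strands, and it was found in 6 of these 8 genes (75%), against 9.55% of the 27025 genes that have a window. Counted over windows, it was in 6 of the members' 12 (50%) and in 8.36% of all 32851. These letters were not in the windows of Phlda3 and Bbc3. The members were chosen as p53 targets, so their share is a description and not a result of these data. A match describes the sequence and does not show that p53 was bound. Each line gives the match in capitals within its flanking bases, 5′ to 3′ on the strand of the gene.
Trp53: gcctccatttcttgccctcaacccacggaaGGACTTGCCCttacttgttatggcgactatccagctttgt
Cdkn1a: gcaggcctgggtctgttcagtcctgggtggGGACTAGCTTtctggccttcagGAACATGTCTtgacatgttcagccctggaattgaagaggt
Mdm2: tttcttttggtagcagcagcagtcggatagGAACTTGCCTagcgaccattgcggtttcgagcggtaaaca
Bax: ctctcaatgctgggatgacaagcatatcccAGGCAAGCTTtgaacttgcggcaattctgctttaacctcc
Ccng1: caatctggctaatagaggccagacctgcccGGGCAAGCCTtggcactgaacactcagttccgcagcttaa
Sesn1: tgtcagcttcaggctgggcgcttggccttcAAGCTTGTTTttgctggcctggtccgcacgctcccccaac

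The Trp53 stretch lies at chr11:69580254-69580323 on the plus strand, and its half-site starts 75 bases before the transcription start. The Cdkn1a stretch lies at chr17:29090876-29090967 on the plus strand and holds 2 separate matches, which start 73 and 51 bases before the start. They are not adjacent, and whether either belongs to a paired site was not examined. Those of Mdm2, at chr10:117710905-117710974, Bax, at chr7:45467060-45467129, and Ccng1, at chr11:40755432-40755501, are on the minus strand, with the match 186, 201 and 185 bases before the start. The Sesn1 stretch, at chr10:41887236-41887305 on the plus strand, precedes an internal start of the gene, 173 bases downstream of the match.

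Between 37852450 and 61845125 counts per library fell on genes, and between 313 and 17028 of them on any one of the 10 genes. Replicates of a group differed by a chi-square per gene of 8.56 to 12.9, well above the sampling noise of the counts. Each targeted gene was lower in its own CKO group. Parp1 was at 202 and 211 CPM (counts per 1000000 of the scaled library) in PARP1 WT and 63.2 and 59.1 CPM in PARP1CKO cells, a log2 fold change of -1.75 (SE 0.178, adjusted p = 0.0134 by the quasi-likelihood test of edgeR, fitted to all 8 libraries and adjusted by Benjamini-Hochberg, as throughout). Without PARP1 WT replicate 1, PARP1 WT replicate 2 or PARP1CKO replicate 2 the adjusted p of Parp1 was 0.0753, 0.0650 and 0.0531. Parp2 was at 48.2 and 48.3 CPM in PARP2 WT cells and 25.8 and 25.6 CPM in PARP2CKO cells, a log2 fold change of -0.91 (SE 0.0453, adjusted p = 0.000139). In the PARP2 line Parp1 was uneven, at 251 and 155 CPM in PARP2 WT cells against 263 and 264 CPM in PARP2CKO cells, a log2 fold change of 0.37 (adjusted p = 0.954) that became 0.07 without PARP2 WT replicate 2 and 0.76 without PARP2 WT replicate 1 (adjusted p = 0.00225). In bulk RNA, fewer cells that express a gene and less of its RNA per cell cannot be told apart, which holds for what remains of Parp1 and Parp2 and for every gene below. Of 8 immature myeloid markers 7 were measured, all above 0 in every library, and Ly6g was not analysed here. Over the libraries Itgam lay between 881 and 1040 CPM and Csf1r between 1130 and 1270 CPM, while Lyz2 varied from 3490 to 10800 CPM and Csf3r from 61.9 to 94.4 CPM.

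The p53 genes were expressed in all 4 groups, and neither deletion moved any of them past the threshold. Among the 10 genes the fitted log2 fold changes lay between -0.11 and 0.08 in PARP1CKO and between -0.14 and 0.12 in PARP2CKO. The upper 95% limit of the fold change was at most 1.26 for any of them in PARP1CKO and 1.28 in PARP2CKO, both in Phlda3. The lower limit was at least 0.775 in PARP1CKO and 0.805 in PARP2CKO. Per kilobase of exon, the order of the median levels over the 8 libraries was Bax (182 CPM per kb), Cdkn1a (104), Mdm2 (70.0), Ccng1 (67.7), Trp53 (44.4), Sesn1 (21.7), Trp53inp1 (8.60), Phlda3 (8.01), Zmat3 (6.58) and Bbc3 (5.12). The ranges over libraries overlapped between Mdm2 (56.6 to 81.3) and Ccng1 (61.5 to 71.8), and among Trp53inp1 (7.40 to 9.27), Phlda3 (4.98 to 9.03), Zmat3 (5.31 to 7.34) and Bbc3 (4.52 to 5.63), of which Trp53inp1 stood clear of Zmat3 and Bbc3. The other genes did not overlap. Comparisons between genes rest on exon lengths of GENCODE M21, and the annotation behind the counts is not given. By group means, Ccng1 was above Mdm2 in both PARP1 groups and below it in PARP2 WT (69.8 against 71.4) and PARP2CKO (68.5 against 77.5). Phlda3 was below Trp53inp1 in both PARP1 groups (6.16 against 8.97 in PARP1 WT) and above it in both PARP2 groups (8.83 against 8.33 in PARP2 WT).

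**Figure D1:**
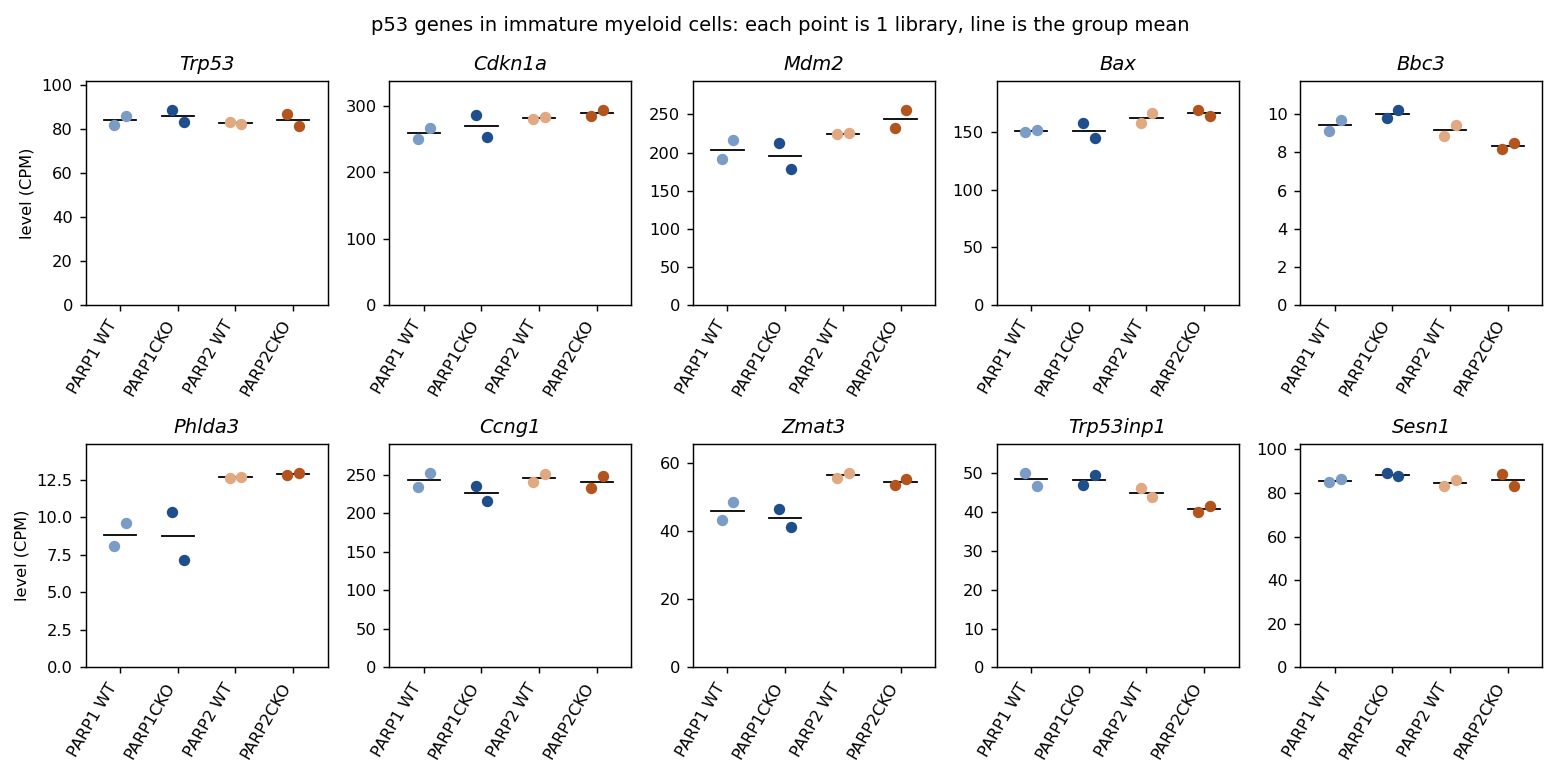
Level of each of the 10 p53 genes in CPM (vertical axes, from 0) in the 4 groups, with 1 point per library and a line at the group mean. Cdkn1a lies between 251 and 294 CPM in all groups, and Mdm2, Phlda3 and Zmat3 are higher in all 4 PARP2-line libraries than in all 4 PARP1-line libraries.

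Trp53, on chromosome 11 of mm10 from 69580359 to 69591873, was at 81.7 and 85.8 CPM in PARP1 WT cells and 88.3 and 82.8 CPM in PARP1CKO cells. It was at 83.1 and 82.0 CPM in PARP2 WT cells and 86.4 and 81.0 CPM in PARP2CKO cells. All 4 groups overlapped, and the highest library was 1.09 times the lowest. The log2 fold change was 0.03 (SE 0.0503, adjusted p = 0.844) for PARP1CKO and 0.02 (SE 0.0499, adjusted p = 0.980) for PARP2CKO.

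Mdm2, the ubiquitin ligase that marks p53 for degradation and is itself a p53 target, lies on chromosome 10 from 117688875 to 117710758. It was at 191 and 216 CPM in PARP1 WT cells and 212 and 178 CPM in PARP1CKO cells, so the PARP1CKO libraries held the lowest value and one inside the WT range. In PARP2 WT it was at 224 and 225 CPM, and in PARP2CKO at 232 and 256 CPM, so both PARP2CKO libraries lay above both controls. Neither difference passed the test, with log2 fold changes of -0.06 (SE 0.0887, adjusted p = 0.820) for PARP1CKO and 0.12 (SE 0.0881, adjusted p = 0.954) for PARP2CKO. For PARP2CKO the 95% interval of the log2 fold change ran from -0.08 to 0.32, and the value was 0.05 without PARP2CKO replicate 2 and 0.19 without PARP2CKO replicate 1.

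Ccng1 encodes cyclin G1, which brings a phosphatase to Mdm2 and so acts in the same loop, and lies on chromosome 11 from 40748552 to 40755311. Its level was 235 and 252 CPM in PARP1 WT cells, 235 and 216 CPM in PARP1CKO cells, 240 and 250 CPM in PARP2 WT cells and 233 and 249 CPM in PARP2CKO cells. Of the 10 genes it had the lowest adjusted p in the PARP1 comparison, with a log2 fold change of -0.11 (SE 0.0586, unadjusted p = 0.0950, adjusted p = 0.505). This value was -0.05 without PARP1CKO replicate 2 and -0.17 without PARP1CKO replicate 1. The value for PARP2CKO was -0.03 (SE 0.0583, adjusted p = 0.978), and the groups overlapped.

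Cdkn1a encodes the cyclin-dependent kinase inhibitor through which p53 halts the cell cycle, and lies on chromosome 17 from 29090976 to 29100727. It was at 251 and 266 CPM in PARP1 WT cells and 286 and 254 CPM in PARP1CKO cells, with overlapping groups. In PARP2 WT it was at 281 and 284 CPM, just under the 285 and 294 CPM of PARP2CKO. The log2 fold change was 0.06 (SE 0.0591, adjusted p = 0.720) for PARP1CKO and 0.04 (SE 0.0589, adjusted p = 0.977) for PARP2CKO. The 95% interval of Cdkn1a ended at a log2 fold change of 0.20 in PARP1CKO and 0.17 in PARP2CKO.

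Of the genes that act in cell death, Bax, which forms pores in the mitochondrial membrane, lies on chromosome 7 from 45461697 to 45466898. Its level was 150 and 152 CPM in PARP1 WT cells, 158 and 144 CPM in PARP1CKO cells, 158 and 166 CPM in PARP2 WT cells and 169 and 164 CPM in PARP2CKO cells. The WT and CKO libraries overlapped in both lines, with log2 fold changes of 0.01 (SE 0.0516, adjusted p = 0.971) and 0.04 (SE 0.0512, adjusted p = 0.977).

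Bbc3 encodes PUMA, which sets Bax free by binding its inhibitors, and lies on chromosome 7 from 16308393 to 16318205. It was at 9.15 and 9.71 CPM in PARP1 WT cells and slightly higher, at 9.81 and 10.2 CPM, in PARP1CKO. In PARP2 WT it was at 8.89 and 9.44 CPM and slightly lower, at 8.20 and 8.51 CPM, in PARP2CKO. Neither set of libraries overlapped, and neither difference passed the test, with log2 fold changes of 0.08 (SE 0.0798, adjusted p = 0.710) and -0.13 (SE 0.0791, adjusted p = 0.954). Leaving out a library moved the first between 0.04 and 0.13 and the second between -0.18 and -0.09.

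Phlda3, whose product competes with the survival kinase AKT for membrane lipids, lies on chromosome 1 from 135766119 to 135769136. It was at 8.09 and 9.59 CPM in PARP1 WT cells and 10.4 and 7.14 CPM in PARP1CKO cells, so the highest and the lowest value of the PARP1 line were the replicates of 1 group. In the PARP2 line it was steady, at 12.6 and 12.7 CPM in PARP2 WT cells and 12.8 and 13.0 CPM in PARP2CKO cells. The log2 fold change was -0.02 (SE 0.155, adjusted p = 0.976) for PARP1CKO and 0.02 (SE 0.144, adjusted p = 0.996) for PARP2CKO. Without PARP1CKO replicate 2 the first of these became 0.22, and without PARP1CKO replicate 1 it became -0.31.

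Trp53inp1, a nuclear protein that promotes p53 activity and autophagy, lies on chromosome 4 from 11156431 to 11174379. It was at 50.1 and 46.8 CPM in PARP1 WT cells and 46.9 and 49.5 CPM in PARP1CKO cells, a log2 fold change of -0.01 (SE 0.0532, adjusted p = 0.976). In PARP2 WT it was at 46.1 and 43.9 CPM and in PARP2CKO at 40.0 and 41.7 CPM, so both PARP2CKO libraries lay below both controls. This was the only one of the 10 genes with an unadjusted p under 0.05 in a deletion comparison, with a log2 fold change of -0.14 (SE 0.0530, 95% interval -0.26 to -0.02, unadjusted p = 0.0265), and it did not pass after adjustment (adjusted p = 0.937).

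Zmat3, which encodes a zinc finger protein that binds RNA, lies on chromosome 3 from 32334792 to 32366014. Its level was 43.3 and 48.8 CPM in PARP1 WT cells, 46.7 and 41.4 CPM in PARP1CKO cells, 55.7 and 57.2 CPM in PARP2 WT cells and 53.7 and 55.5 CPM in PARP2CKO cells. The PARP1CKO libraries overlapped their controls and the PARP2CKO libraries lay just below theirs. The log2 fold changes were -0.07 (SE 0.0705, adjusted p = 0.750) and -0.05 (SE 0.0683, adjusted p = 0.977).

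Sesn1 encodes sestrin 1, which restrains the growth kinase mTORC1, and lies on chromosome 10 from 41809935 to 41908424. It varied least of the 10 genes, with the highest library 1.07 times the lowest. Its level was 85.0 and 86.2 CPM in PARP1 WT cells, 89.2 and 87.7 CPM in PARP1CKO cells, 83.0 and 85.8 CPM in PARP2 WT cells and 88.5 and 83.2 CPM in PARP2CKO cells. Both PARP1CKO libraries lay above both controls, and the log2 fold change of 0.05 (SE 0.0433, adjusted p = 0.704) did not pass. The value for PARP2CKO was 0.02 (SE 0.0430, adjusted p = 0.978).

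Some counts could include reads from overlapping transcripts. The exons of Bax share 192 bases with the predicted gene Gm45808 on the same strand. Those of Cdkn1a share 273 bases with AC167363.2 on the opposite strand, and the use of strand in counting is not given. Neither of these is in the table used here. The span of Zmat3 overlaps 4930429B21Rik by 177 bases, and that gene had between 4 and 15 counts per library against at least 1677 for Zmat3.

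Over the 10 genes, the PARP1 deletion gave 5 positive and 5 negative log2 fold changes with a median of 0.00064, where 52.1% of all genes tested were positive and their median was 0.0059. With edgeR's quasi-likelihood test 0 of 10 were called at an adjusted p under 0.05, against 0.106% of all genes. Also 0 of 10 had an unadjusted p under 0.05, against 11.3% of all genes. DESeq2 and edgeR's likelihood-ratio test each called 0, against 0.652% and 1.11% of all genes. Both PARP1CKO libraries lay above both controls in 2 of the 10, Bbc3 and Sesn1, against 21% of all genes, and below both in 0, against 20.2%. The median size of the change, without its sign, was 0.0541 for the 10 genes and 0.0787 for all genes. Here and below, medians over all genes were not matched for level, and they include genes with far fewer counts than these 10. The sign of the median log2 fold change was not stable, at 0.0587 without PARP1CKO replicate 2, -0.0448 without PARP1CKO replicate 1 and -0.0045 with plain library sizes.

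For the PARP2 deletion 6 values were positive and 4 negative, with a median of 0.0229, where 49.3% of all genes were positive and their median was -0.0014. The sign of this median was not stable, at -0.0018 without PARP2CKO replicate 1 and -0.0034 with plain library sizes. The quasi-likelihood test called 0 of 10, against 0.053% of all genes, and the unadjusted p was under 0.05 in 1 of 10, Trp53inp1, against 4.83%. DESeq2 and the likelihood-ratio test each called 0, against 0.205% and 0.296% of all genes. Both PARP2CKO libraries lay above both controls in 3 genes, Cdkn1a, Mdm2 and Phlda3, against 18.4% of all genes, and below both in 3, Bbc3, Zmat3 and Trp53inp1, against 18.8%. The median size of the change was 0.0384, and 0.0579 for all genes. With 2 libraries against 2, an exact two-sided permutation test of a single gene cannot go below p = 0.333, so each call rests on the spread that edgeR pools over genes.

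**Figure D2:**
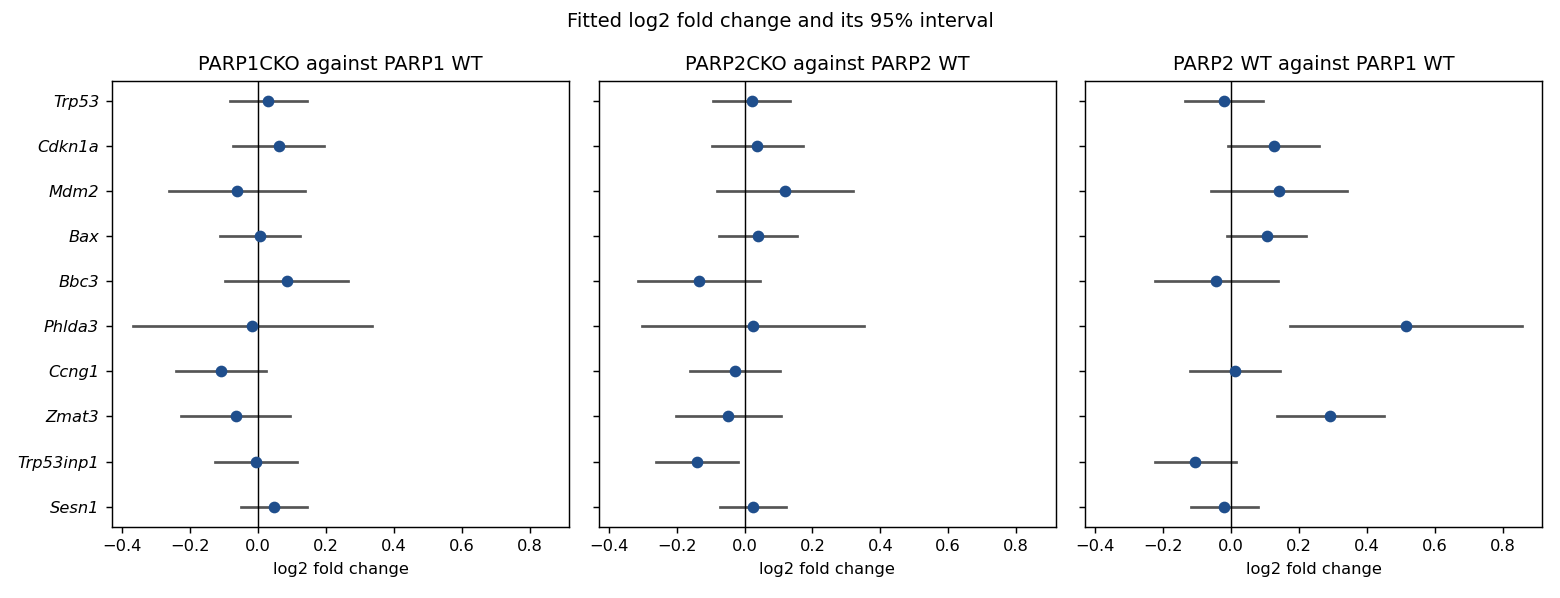
Fitted log2 fold change (point) and its 95% interval (bar) for the 10 p53 genes for the PARP1 deletion, the PARP2 deletion, and PARP2 WT against PARP1 WT. Among the deletions only the interval of Trp53inp1 in PARP2CKO leaves 0 out, and in the comparison of the WT groups those of Phlda3 and Zmat3 do.

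The deletions were then compared with each other, by testing the PARP2CKO effect minus the PARP1CKO effect in the same model. None of the 10 genes differed past the threshold, against 0.0152% of all genes called, and none had an unadjusted p under 0.05, against 7.69%. DESeq2 and the likelihood-ratio test also called 0, against 0.341% and 0.546% of all genes. The value furthest from 0 was that of Bbc3, at -0.22 (SE 0.112, unadjusted p = 0.0847, adjusted p = 0.686), whose effects were 0.08 in PARP1CKO and -0.13 in PARP2CKO. Next were Mdm2, at 0.18 (SE 0.125, adjusted p = 0.760), and Trp53inp1, at -0.14 (SE 0.0751, adjusted p = 0.704). Leaving out a library moved Bbc3 between -0.26 and -0.17, Mdm2 between 0.06 and 0.31, Trp53inp1 between -0.18 and -0.08, and Phlda3 between -0.20 and 0.34, so this order did not hold throughout. Over the 10 genes the 95% limits of the ratio between the effects ran from 0.721, for Bbc3, to 1.44, for Phlda3.

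The WT groups of the floxed lines were also compared, since they differ by no Cre. Parp2 was itself called higher in PARP2 WT by the quasi-likelihood test, at 48.17 and 48.32 CPM against 39.05 and 40.77 CPM in PARP1 WT. Its log2 difference was 0.27 (SE 0.0446, adjusted p = 0.0159), while that of Parp1 was -0.02 (adjusted p = 0.963). The median size of the difference was 0.105 over the 10 genes, and 0.0892 over all genes. Phlda3 in PARP2 WT, at 12.6 and 12.7 CPM, exceeded the 8.09 and 9.59 CPM of PARP1 WT, a log2 difference of 0.51 (SE 0.151, 95% interval 0.17 to 0.86, unadjusted p = 0.00785). Zmat3 differed by 0.29 (SE 0.0694, 95% interval 0.13 to 0.45, unadjusted p = 0.00239), from 43.3 and 48.8 CPM to 55.7 and 57.2 CPM. After adjustment Phlda3 was at 0.116 and Zmat3 at 0.0612 in the quasi-likelihood test, so 0 of 10 were called, against 3.16% of all genes, and 2 of 10 had an unadjusted p under 0.05, against 18.9%. Both were called by DESeq2 (adjusted p = 0.0389 and 0.0191), which called 4.18% of all genes, and by the likelihood-ratio test (0.0250 and 0.00576), which called 6.9%. Both also passed the quasi-likelihood test without PARP1CKO replicate 1 (0.0200 and 0.0332) or without PARP1CKO replicate 2 (0.0192 and 0.0331), although neither library belongs to the groups compared.

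Among the remaining members the WT lines differed by 0.14 in Mdm2 (adjusted p = 0.445), 0.12 in Cdkn1a (adjusted p = 0.296), 0.10 in Bax (adjusted p = 0.316) and -0.11 in Trp53inp1 (adjusted p = 0.327). Leaving out a library moved Mdm2 between 0.05 and 0.23, Cdkn1a between 0.08 and 0.17, Bax between 0.06 and 0.14, and Trp53inp1 between -0.16 and -0.06. Trp53, Bbc3, Ccng1 and Sesn1 lay between -0.04 and 0.01. PARP2 WT was above PARP1 WT in both libraries for 5 genes and below for 1, against 26.7% and 25.2% of all genes. In Mdm2, Phlda3 and Zmat3 all 4 PARP2-line libraries lay above all 4 PARP1-line libraries, against 10.5% of all genes, and in Trp53inp1 all 4 lay below, against 9.93%. The line, its litters and any handling shared within it cannot be told apart here.

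Cell type markers also differed between the WT groups, where the quasi-likelihood test called 3.16% of all genes and 18.9% had an unadjusted p under 0.05. DESeq2 called 4.18% of all genes here and the likelihood-ratio test 6.9%. The immature myeloid genes summed to 8170 and 8880 CPM in PARP1 WT cells and to 12200 and 13400 CPM in PARP2 WT cells. Lyz2 made up most of each sum and of the gap between the groups, at 5710 and 6390 CPM and at 9720 and 10800 CPM. Csf3r was lower in PARP2 WT, at 65.7 and 74.1 CPM against 82.3 and 85.9 CPM. The list's median log2 difference was 0.13, with 6 of 7 values positive. The quasi-likelihood test called 1 of 7 higher, Lyz2, DESeq2 and the likelihood-ratio test called 2 each, and 5 had an unadjusted p under 0.05. The summed level of 6 B cell genes was 32.3 and 27.6 CPM in PARP1 WT cells and 10.7 and 9.07 CPM in PARP2 WT cells, and 5 of the 5 tested were called lower. Granulocyte progenitor genes summed to 265 and 302 CPM and to 390 and 347 CPM, with 2 of 4 called higher. Erythroid genes summed to 2.77 and 2.22 CPM and to 1.26 and 1.08 CPM, with 1 of 3 called lower, and basophil and mast cell genes to 26.1 and 24.3 CPM and to 14.6 and 11.6 CPM, with 0 of 6 called by the quasi-likelihood test, 2 by DESeq2 and 4 by the likelihood-ratio test, and 6 at an unadjusted p under 0.05. None of these genes was at 0 in both libraries of a WT group, and of the erythroid genes Car1 was at 0 in both PARP2CKO libraries. All 12 genes of cycling cells were lower in PARP2 WT, with a median log2 difference of -0.10, of which the quasi-likelihood test called 0, DESeq2 and the likelihood-ratio test 1 each, and 7 had an unadjusted p under 0.05. Their part in the difference of Phlda3 and Zmat3 was not tested.

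Among the libraries, PARP1CKO replicate 2 held the lowest of the 8 values for 5 of the 10, namely Mdm2, Bax, Phlda3, Ccng1 and Zmat3. In this library 7 of 10 lay below the mean of their gene, with a median deviation of -0.12 on the log2 scale. PARP1 WT replicate 1 had 9 of 10 below the mean, with a median deviation of -0.06. Such counts were not made over all genes, so they do not show that the p53 genes stood out in these libraries. Within PARP1CKO, 8 of the 10 genes were higher in replicate 1 than in replicate 2, against 48.8% of all genes. The gap was 0.53 on the log2 scale in Phlda3, exceeded by 7.26% of all genes, and 0.25 in Mdm2, exceeded by 19% of all genes. Within PARP1 WT, 9 of the 10 were higher in replicate 2, where 49.3% of all genes were higher in replicate 1.

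The median gap between the replicates of a group, without its sign, was 0.126 for the 10 genes in PARP1CKO, against 0.0872 for all genes. It was 0.0926 against 0.0931 in PARP1 WT, 0.0427 against 0.0649 in PARP2 WT and 0.0564 against 0.0777 in PARP2CKO. The p53 genes were thus more variable than the median over all genes in PARP1CKO and less so in both PARP2 groups. This describes these libraries, and the genes were not matched for level. PARP1CKO replicate 2 also had the lowest summed level of 10 early response genes, at 553 CPM against 674 CPM in its replicate and between 813 and 992 CPM in the other 6 libraries, and the highest of B cell genes, at 40.0 CPM, of T and NK cell genes, at 5.97 CPM, of erythroid genes, at 4.78 CPM, and of basophil and mast cell genes, at 29.0 CPM. Whether any of these bears on its p53 genes was not tested.

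**Figure D3:**
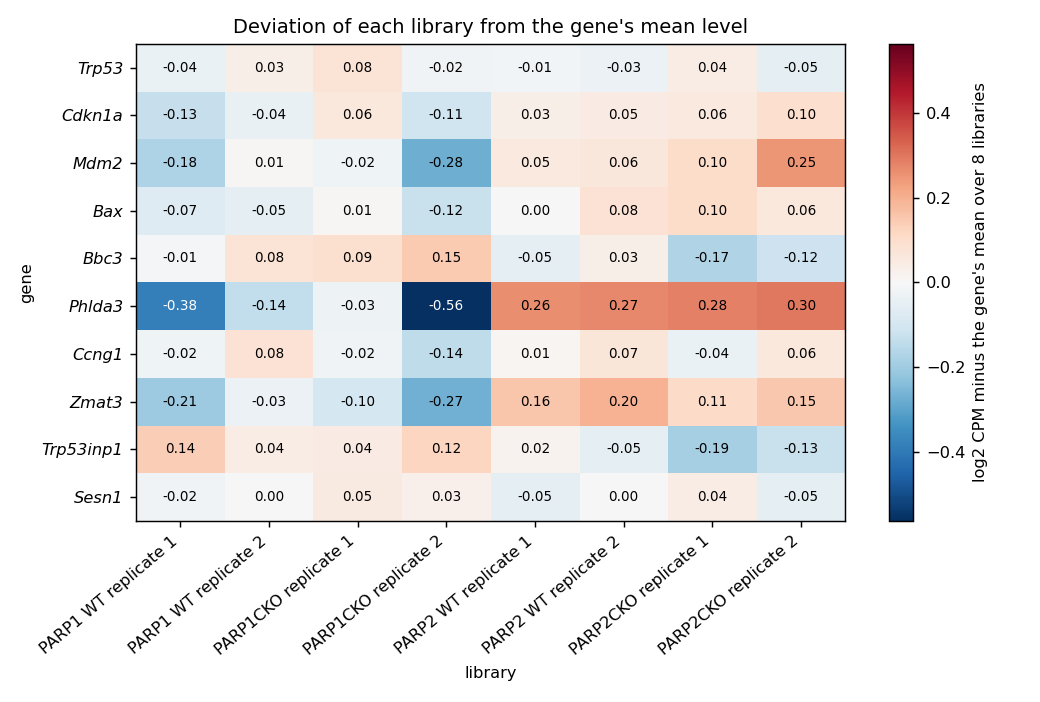
Deviation of log2 CPM from the gene's mean over 8 libraries (colour and printed value), with genes in rows and libraries in columns. PARP1CKO replicate 2 is lowest for Mdm2, Bax, Phlda3, Ccng1 and Zmat3, with Phlda3 at -0.56.

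Beyond the 10 genes, 38 further p53 targets were sorted into lists by role, and 36 passed the filter on low counts. Rprm, with at most 2 counts in a library, and Perp, with at most 7, did not. None of the 36 was called in PARP1CKO by the quasi-likelihood test, DESeq2 or the likelihood-ratio test, which called 0.106%, 0.652% and 1.11% of all genes. An unadjusted p under 0.05 was found for 2, both with a lower level, where 11.3% of all genes had one in either direction. In PARP2CKO each test again called 0, against 0.053%, 0.205% and 0.296% of all genes. Again 2 were lower at an unadjusted p under 0.05, where 4.83% of all genes had one. Both counts are near or below the background, so these genes are given as values. The median log2 fold change was -0.02 in PARP1CKO, with 16 positive and 20 negative, and -0.03 in PARP2CKO, with 13 positive and 23 negative.

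In PARP1CKO the lower genes were Rfwd2, the older symbol of Cop1, a ubiquitin ligase for p53, and Gadd45a, a growth arrest gene. Rfwd2 was at 87.6 and 87.7 CPM in PARP1 WT cells and 81.5 and 80.2 CPM in PARP1CKO cells, a log2 fold change of -0.12 (SE 0.0401, unadjusted p = 0.0180, adjusted p = 0.349). Gadd45a was at 17.2 and 16.1 CPM in PARP1 WT cells and 13.4 and 15.6 CPM in PARP1CKO cells, a log2 fold change of -0.20 (SE 0.0850, unadjusted p = 0.0439, adjusted p = 0.430). The value of Gadd45a was -0.09 without PARP1CKO replicate 1 and -0.31 without PARP1CKO replicate 2. Both CKO libraries lay below both controls in each gene, while in PARP2CKO the values of Rfwd2 and Gadd45a were -0.01 and 0.06 with overlapping groups.

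In PARP2CKO the lower genes were Btg2, which slows proliferation and is also induced early by growth signals, and Lpin1, a phosphatidate phosphatase of lipid synthesis. Btg2 was at 15.8 and 19.3 CPM in PARP2 WT cells and 12.3 and 13.2 CPM in PARP2CKO cells, a log2 fold change of -0.46 (SE 0.141, unadjusted p = 0.0101, adjusted p = 0.878). Lpin1 was at 21.4 and 20.99 CPM in PARP2 WT cells and 17.8 and 17.0 CPM in PARP2CKO cells, a log2 fold change of -0.29 (SE 0.103, unadjusted p = 0.0209, adjusted p = 0.888). In PARP1CKO their values were -0.24 and 0.19, with overlapping groups, and leaving out a library moved them between -0.41 and -0.08 for Btg2 and between 0.04 and 0.33 for Lpin1. Beside Btg2, 10 early response genes had median log2 fold changes of -0.21 in PARP2CKO and -0.35 in PARP1CKO, and their part in the level of Btg2 was not tested. The quasi-likelihood test called 2 of the 10 in PARP1CKO, Fos and Dusp1, both lower, and 0 in PARP2CKO, against 0.106% and 0.053% of all genes. DESeq2 and the likelihood-ratio test each called 5 and 1. Of all genes DESeq2 called 0.652% and 0.205%, and the likelihood-ratio test 1.11% and 0.296%. An unadjusted p under 0.05 was found for 6 and 4 of the 10 early response genes, against 11.3% and 4.83% of all genes.

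By role, the PARP1CKO and PARP2CKO medians were -0.03 and -0.06 for 6 arrest targets, -0.01 and -0.02 for 10 death targets, and -0.02 and -0.05 for 7 repair targets. They were 0.06 and -0.0046 for 10 metabolism targets and -0.04 and -0.05 for 3 feedback targets. The scarce transcripts Eda2r and Gls2, named here after their values were seen, gave the lowest target values in PARP1CKO and the highest in PARP2CKO. Eda2r, a death receptor, had between 19 and 91 counts per library and lay at -0.86 in PARP1CKO (adjusted p = 0.455) and 0.44 in PARP2CKO (adjusted p = 0.954). Gls2, a glutaminase, had between 4 and 10 counts and lay at -0.52 (adjusted p = 0.730) and 0.65 (adjusted p = 0.957).

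Upstream of p53, 12 regulators were measured, among them the break-sensing kinase Atm, the checkpoint kinases Chek1 and Chek2, and Mdm4, a partner of Mdm2. The quasi-likelihood test called 0 of 12 in either deletion, where it called 0.106% and 0.053% of all genes in PARP1CKO and PARP2CKO. DESeq2, which called 0.652% and 0.205% of all genes, and the likelihood-ratio test, which called 1.11% and 0.296%, also called 0 of 12. Also 0 of 12 had an unadjusted p under 0.05, where 11.3% and 4.83% of all genes did. The median log2 fold change was -0.01 in both deletions. Atm lay at 0.02 in PARP1CKO and 0.03 in PARP2CKO, Chek1 at -0.14 and -0.03, Chek2 at 0.06 and -0.07, and Mdm4 at -0.0046 and -0.06. Cdkn2a, whose alternative product ARF inhibits Mdm2, had at most 13 counts in a library. The p53 relatives Trp63 and Trp73 had at most 1 count in a library and were not tested.

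**Figure D4:**
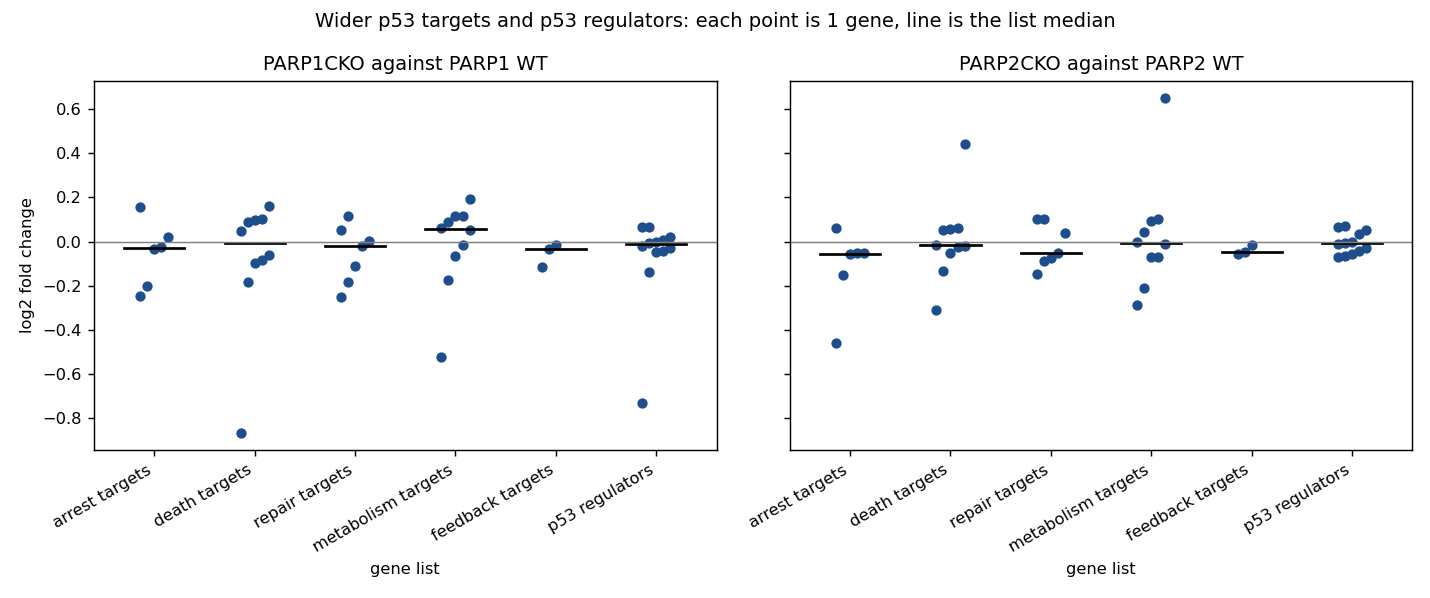
Log2 fold change (vertical axis) of each further p53 target and p53 regulator, by list, for each deletion against its WT group, with 1 point per gene and a line at the list median. The list medians lie between -0.06 and 0.06, and the lowest point is Eda2r in PARP1CKO, at -0.86.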

How the data were processed

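Total RNA of IMCs was sequenced from stranded libraries (TruSeq Stranded Total RNA). The authors trimmed single-end reads with fastq-mcf, mapped them to mm10 with TopHat2 2.0.12, marked duplicates with Picard 1.127, checked them with FastQC 0.11.2 and counted them on genes with featureCounts. The deposited values are raw counts per gene. The annotation, the strand setting and whether marked duplicates were left out are not given in the sources used here. No column lay outside the 8 libraries. Replicates differed by more than sampling noise, so each library counted as 1 replicate.

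Genes were filtered with filterByExpr, scaled with TMM factors and tested with the quasi-likelihood test of edgeR 4.0.16 (R 4.3.3), fitting 1 mean per group to the 8 libraries together, with Benjamini-Hochberg adjustment over 13197 genes and a threshold of 0.05. The common biological coefficient of variation was 0.055. CPM values are counts per 1000000 of the TMM-scaled library size. SEs were derived from the fold change and its F statistic. Gene positions and exon lengths are those of GENCODE M21 on GRCm38, and promoters those of RefSeq on GRCm38.p6. DESeq2 1.42.0 and matplotlib 3.10.9 were also used. The genes named are the 10 members, Parp1 and Parp2, genes that overlap a member, and genes of the wider lists with an unadjusted p under 0.05 in a deletion comparison. The regulators, cell type markers and other genes named beyond this rule were chosen after their values were seen. The members and lists were chosen with earlier results of these data known.

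Alternatives to the scaling were the size factors of DESeq2 and plain library sizes. Alternatives to the test were DESeq2's own, edgeR's likelihood-ratio test, a fit limited to the 4 libraries compared, and a replicate block. The filter was also dropped or replaced by 1 CPM in at least 2 libraries, and each library was left out in turn.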

Additional observations from a re-analysis of the deposited data

Results flagged for a closer look

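The effect of the deletions on Parp2 differed between the lines, by the test of the difference itself. Parp2 had a log2 fold change of -0.09 in PARP1CKO and -0.91 in PARP2CKO, a difference of -0.82 (SE 0.0639, adjusted p = 0.00634 in edgeR's quasi-likelihood test). Parp2 is the gene deleted in PARP2CKO. For Parp1, the gene deleted in PARP1CKO, the difference was 2.13 (SE 0.245) and fell short of the threshold (adjusted p = 0.0553 in the same test). DESeq2 and the likelihood-ratio test called both Parp1 and Parp2. None of the 10 p53 genes and none of the further p53 targets passed the quasi-likelihood test of the difference.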

How the results depend on the processing

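None of the 10 p53 genes or the 36 further targets tested was called in PARP1CKO, in PARP2CKO or in the difference between them under any alternative run. For PARP2 WT against PARP1 WT, 2 of the 10 were called with DESeq2, 2 with the likelihood-ratio test, 2 without a filter on low counts and 1 with the 4 libraries of the comparison, and leaving out a library gave 0 to 2. Of the further targets 3, 4, 3 and 3 were called in these settings, and leaving out a library gave 0 to 3. With DESeq2, with the likelihood-ratio test, without the filter and with the 4 libraries alone, Plk3 and Gpx1 were called higher in PARP2 WT and Pmaip1 lower. Sesn2 was called lower with the likelihood-ratio test only. In the main fit the 36 further targets had 18 positive and 18 negative values between the WT groups, with a median of -0.0035. Over all genes, calls for PARP1CKO, PARP2CKO and their difference were 14, 7 and 2. They were 86, 27 and 45 with DESeq2, 146, 39 and 72 with the likelihood-ratio test, and 101, 26 and 61 without the filter, and leaving out a library gave 1 to 34, 4 to 19 and 1 to 16. Between the WT groups 417 of 13197 genes were called (3.16%), 551 with DESeq2 (4.18%) and 910 with the likelihood-ratio test (6.9%). Without the filter 872 of 17542 were called, and 85 to 566 genes when a library was left out. The fit to the 4 libraries tested 12940 genes. Its calls lie within the 315 to 910 found over the alternatives other than leaving out a library. The cause of these moves was not tested. Whether p53 genes or further targets were called more often than all genes in these settings was also not tested.

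The replicate block left 0 p53 genes called in all comparisons. It gave 14 calls over all genes in PARP1CKO, 6 in PARP2CKO, 3 in their difference and 315 between the WT groups, where 1 further target, Plk3, was called. Same-numbered libraries deviated together with correlations of -0.134 (PARP1 groups), 0.168 (PARP2 groups) and -0.0443 (WT groups). Nothing in the sources ties the numbers to a litter or day, so the libraries were not treated as paired, and whether they share one is not known. A crossed pairing in the PARP1 line, chosen after seeing the data, gave 18 calls over all genes and 0 p53 genes.

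Signs of values near 0 were not stable. With library size alone, the PARP2CKO values became -0.0054 for Trp53, -0.0012 for Phlda3 and -0.0014 for Sesn1, the difference became -0.0027 for Zmat3, and the WT value became -0.028 for Ccng1. Leaving out a library gave these ranges in PARP1CKO: the median of the 10 genes -0.0448 to 0.0587, Trp53 -0.017 to 0.076, Cdkn1a -0.029 to 0.14, Mdm2 -0.20 to 0.059, Bax -0.061 to 0.070, Phlda3 -0.31 to 0.22, Zmat3 -0.16 to 0.021 and Trp53inp1 -0.059 to 0.041. In PARP2CKO they were -0.027 to 0.067 for Trp53, -0.077 to 0.020 for Ccng1, -0.021 to 0.069 for Sesn1 and -0.052 to 0.024 for Rfwd2. For the difference they were -0.058 to 0.038 for Trp53, -0.11 to 0.066 for Cdkn1a, -0.030 to 0.10 for Bax, -0.20 to 0.34 for Phlda3, -0.068 to 0.11 for Zmat3 and -0.068 to 0.022 for Sesn1. For the WT groups they were -0.056 to 0.014 for Trp53, -0.089 to 0.00038 for Bbc3, -0.040 to 0.064 for Ccng1 and -0.046 to 0.0035 for Sesn1.

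With 2 libraries per group the intervals are wide for some genes, and among the members widest for Phlda3 in the deletion comparisons. The p53 protein was not measured.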

Other observations

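The summed level of 12 genes of cycling cells was 1920 and 2000 CPM in PARP1 WT cells, 1860 and 1840 CPM in PARP1CKO cells, 1810 and 1820 CPM in PARP2 WT cells and 1760 and 1760 CPM in PARP2CKO cells. Both CKO groups lay below their controls in this sum, and any link to the p53 genes was not tested. The list medians on the log2 scale were -0.07 in PARP1CKO and -0.03 in PARP2CKO. None of the 12 was called in either deletion by edgeR's quasi-likelihood test, DESeq2 or the likelihood-ratio test. Of all genes these tests called 0.106%, 0.652% and 1.11% in PARP1CKO and 0.053%, 0.205% and 0.296% in PARP2CKO. An unadjusted p under 0.05 was found for 3 of the 12 in PARP1CKO and 1 in PARP2CKO, where 11.3% and 4.83% of all genes had one.

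Lyz2, the lysozyme gene that carries the Cre in lysozyme-Cre mice, was at 5711 and 6386 CPM in PARP1 WT cells and 3494 and 4334 CPM in PARP1CKO cells. In PARP2 WT it was at 9723 and 10800 CPM and in PARP2CKO at 6741 and 5746 CPM. The log2 fold changes of Lyz2 were -0.63 (SE 0.116, adjusted p = 0.135) and -0.72 (SE 0.116, adjusted p = 0.187) in edgeR's quasi-likelihood test, which did not call it. DESeq2 called it in both deletions (adjusted p = 0.0119 and 0.00454), as did the likelihood-ratio test (adjusted p = 7.17e-05 and 2.65e-06), and all Cre-carrying libraries lay below their controls. Lyz2 is named here after its values were seen.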
